A study of Mus musculus with 8 samples.

Results

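The primary cilium is a single, microtubule-based projection of the epithelial cell that carries receptors and channels in its membrane, and most inherited cystic kidney diseases involve a protein that works at it. Intraflagellar transport builds and maintains the organelle. Complex B, driven by heterotrimeric kinesin, carries cargo outward. Complex A, driven by cytoplasmic dynein of the ciliary type, brings it back. The BBSome, a coat of Bardet-Biedl syndrome proteins, moves membrane proteins out of the cilium, and the transition zone at its base gates what enters. Polycystin-1, the product of *Pkd1*, sits in the ciliary membrane with polycystin-2, and several genes of cystic liver disease act earlier, in folding and translocating such proteins at the endoplasmic reticulum (ER).

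The transcripts of these genes were compared between 4 kidneys of Pkd1V/V mice and 4 kidneys of wild-type littermates, all collected at P10 (10 days of age) and each hybridized to its own Illumina BeadChip array. Pkd1V/V mice are homozygous for a hypomorphic *Pkd1* allele and their kidneys are labelled cystic. Strain and sex are not stated for these mice in the sources used here. The allele is a germline one, so every kidney cell type carried it, and RNA came from whole kidney pellets. Members were the genes whose array annotation begins with Ift, Bbs or Nphp followed by a digit, or with Dync2, joined by a fixed list of kinesin, polycystin, fibrocystin, transition zone, inversin and ER genes. There were 43 such genes, with 65 probes, among 16593 on the array, and 35 of them were tested among 9833 genes with a detected probe. The other 8 (*Ift46*, *Ift74*, *Traf3ip1*, *Glis3*, *Cep290*, *Ofd1*, *Tmem67* and *Invs*) were detected in 0 of 8 kidneys, in neither genotype. Their highest normalized signal in any kidney was 17.8, for *Invs*, and the lowest detection p-value was 0.0677, so no level or difference is given for them. Another 5 entries of the list (*Pkd2*, *Mks1*, *Arl13b*, *Arl6* and *Ttc21b*) are not named in the annotation used here.

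Detected probes made up 51.8 to 54.3% of each array. Wild-type replicate 4 also held some liver transcripts, with an *Ahsg* signal of 13311 against 0 to 7.33 in the other 7 kidneys. Of the same liver list, *Apoa1* was 12384 there and 0 to 5.86 in the others, while *Alb* and *Fgb* were detected on 0 of 8 arrays. Of all genes tested, 15.8% were lower and 16.8% higher in Pkd1V/V kidneys. Of the marker lists, 11 of 12 proximal tubule genes and 5 of 6 thick ascending limb genes were lower. So were 2 of 3 distal convoluted tubule, 2 of 4 intercalated cell, 1 of 2 podocyte and 5 of 6 endothelial genes. The 2 liver genes tested were also lower, but *Apoa2* was 10032 in wild-type replicate 4 and 185 to 291 in the other wild-type kidneys. *Ttr* was detected in all 8 kidneys, at 1616 to 13150. These 2 are not read as a change of liver cells. Higher were 5 of 7 principal cell genes, 6 of 6 macrophage and leukocyte genes, 5 of 5 tubular injury genes, 3 of 5 proliferation genes, and 3 of 6 fibroblast and matrix genes, with 1 of the 6 lower. Within these counts *Havcr1* and *Krt20* of the injury list (detected on 4 and 5 of the 8 arrays) entered the test through the Pkd1V/V kidneys, and *Acsm2* of the proximal tubule list (5 of 8) through the wild-type kidneys, so these 3 add nothing to their lists. In a whole kidney, a fall in signal can come from fewer cells of a type or from less RNA per cell, and these cannot be told apart here.

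A pair of promoter stretches show the sequence element by which ciliary genes are best known. The X-box, bound by RFX factors, was searched as GTTNCC and GGNAAC separated by 0 to 3 bases on either strand, in the 300 bases from 250 before to 50 after each RefSeq start (GRCm38.p6). Of the 43 members, 36 had such a window, and 3 of these (8.33%: *Ahi1*, *Bbs7* and *Ift57*) held an X-box, against 253 of 27025 genes (0.936%) and 1.06% of the genes tested on the array. A lone arm of it, GTTGCC on either strand, stood in 13 of 36 members (36.1%) and in 14.1% of all genes. The stretches of *Bbs7* (chr3:36613467-36613540, minus strand) and *Ift57* (chr16:49699204-49699276, plus strand) are shown because both carry the X-box, alone in capitals, upstream of the start, at −121 to −108 and −60 to −48. Those of *Kif3a* (chr11:53567241-53567306, plus strand, arm from −98) and *Ift140* (chr17:25015947-25016012, plus strand, from −109) carry the lone arm, in capitals.
Bbs7: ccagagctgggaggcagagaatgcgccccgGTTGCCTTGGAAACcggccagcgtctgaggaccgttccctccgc
Ift57: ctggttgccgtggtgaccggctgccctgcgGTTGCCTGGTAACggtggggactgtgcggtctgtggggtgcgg
Kif3a: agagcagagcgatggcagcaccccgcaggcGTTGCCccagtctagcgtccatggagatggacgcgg
Ift140: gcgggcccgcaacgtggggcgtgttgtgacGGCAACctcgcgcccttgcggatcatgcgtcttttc

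The members moved little. With limma at a Benjamini-Hochberg adjusted *P* under 0.1, 3 of 35 (8.57%) were higher in Pkd1V/V kidneys, against 16.8% of all genes tested, and 3 of 35 (8.57%) were lower, against 15.8%. In either direction 6 of 35 passed (17.1%), where 32.6% of all genes did, and 29 did not pass. The genotypes did not overlap for 6 of 35 members (17.1%) and for 29.2% of all genes. No member differed by 2-fold or more, as 911 of the 9833 genes did, and the members ranged from −0.48 to 0.66 in log2 fold change. Their median log2 fold change was −0.01, beside 0.02 for all genes, and the median size of the change was 0.17, beside 0.26. Without wild-type replicate 4, the kidney with liver transcripts, 3 were higher and 4 lower.

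**Figure D1:**
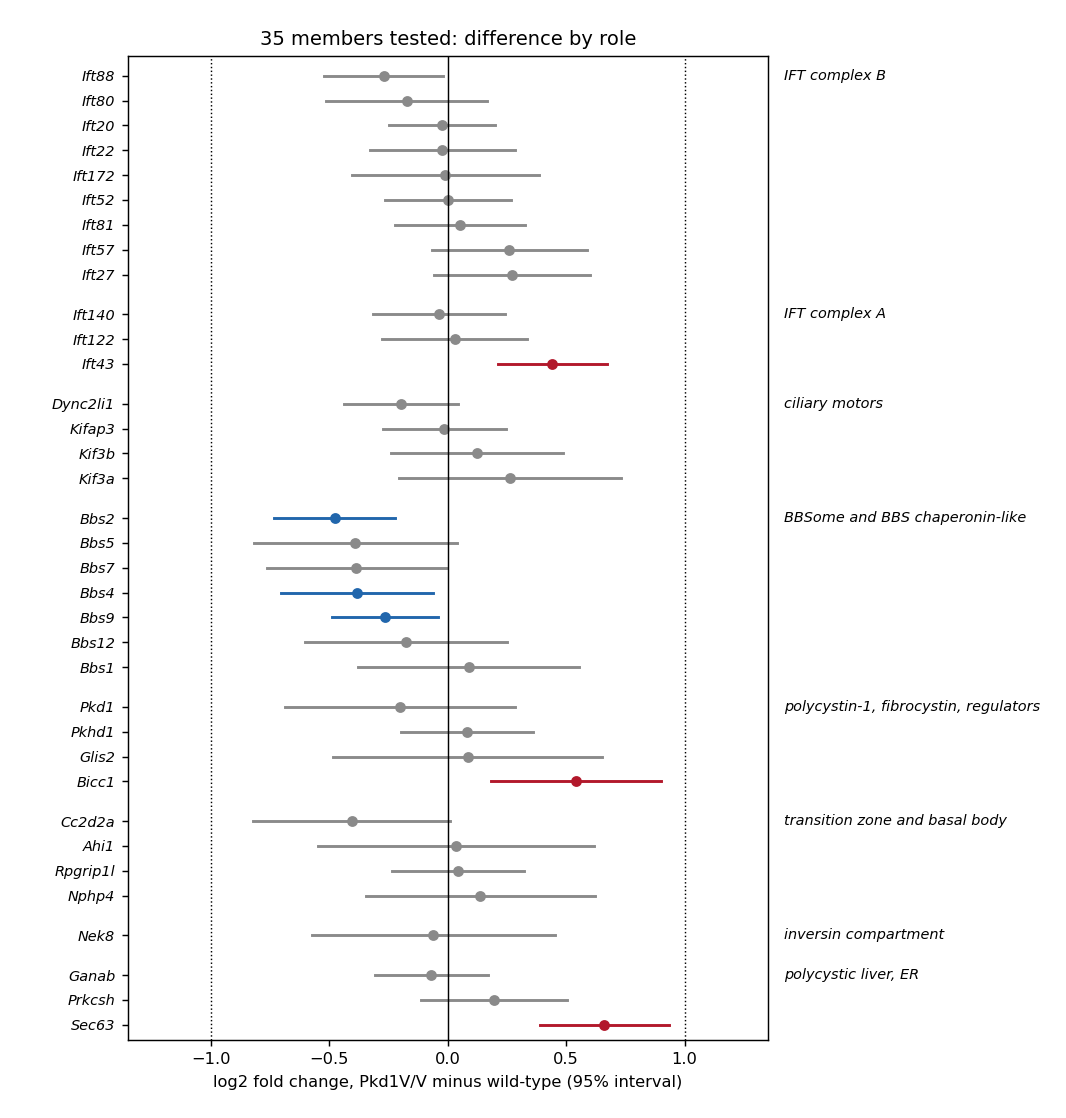
Difference between Pkd1V/V and wild-type kidneys (log2 fold change, horizontal axis) for the 35 members tested, grouped by role, with 95% intervals from limma. Red marks the 3 higher members, blue the 3 lower and grey those that did not pass. Dotted lines stand at a 2-fold change, and all 35 intervals lie between them.

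The measurements were precise enough to bound most of these differences. The 95% intervals of 35 of 35 members lay within a 2-fold change in either direction, as did those of 7684 of all genes (78.1%). Among the genes that did not pass, this held for 29 of 29 members and for 93.2% of all genes that did not pass. Intervals within 0.5 on the log2 scale were found for 13 of the 29 (44.8%), close to the 43.7% of all genes that did not pass. The median standard error was 0.14 for members and 0.16 for all genes, and the intervals are not adjusted for the number of genes.

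Among the genes of complex B, which carries cargo toward the tip, 0 of 9 tested passed in either direction, beside 32.6% of all genes. Their log2 fold changes ran from −0.27 to 0.27, with a median of −0.01. *Ift88*, whose hypomorphic allele in the mouse gives polycystic kidneys, had the lowest. The *Ift88* signal was 135, 135, 134 and 108 in Pkd1V/V replicates 1 to 4 and 148, 166, 161 and 153 in wild-type replicates 1 to 4. All 4 Pkd1V/V kidneys lay below all 4 wild-type kidneys, and replicate 4 was the lowest. The log2 fold change of −0.27 (standard error 0.11) had an adjusted *P* of 0.108 in limma and did not pass. The exact permutation test over the 8 kidneys, two-sided, gave *P* = 0.0286, the smallest that 4 against 4 allow. That value is not adjusted for the number of genes, so the 2 values cannot be set against each other. Members whose genotypes did not overlap, *Dync2li1* among them, all had this permutation value. Of all genes, 29.2% did not overlap.

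*Ift52*, a core subunit of the complex, had the smallest difference. It averaged 945 ± 104 in the Pkd1V/V group and 941 ± 65.0 in the wild-type group (signal, SD, n = 4 each), with a log2 fold change of 0.00 and a 95% interval from −0.26 to 0.27. *Ift20*, which also acts in transport from the Golgi, had a signal of 1914 ± 58.5 and 1949 ± 115 (SD, n = 4 each). *Ift172*, *Ift22* and *Ift81* likewise lay between −0.02 and 0.05. *Ift27*, a small GTPase of the complex, and *Ift57* had log2 fold changes of 0.27 and 0.26, and *Ift80* of −0.17, with adjusted *P* of 0.212, 0.230 and 0.449 in limma. The kidneys of both genotypes overlapped for each of these 3. Signals were low for *Ift57* (20.5 to 47.5, with 1 of its 4 probes detected) and *Ift80* (26.4 to 52.4). The *Ift57* log2 fold change was 0.13 with an offset of 64 and 0.40 with no offset.

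Complex A, which returns cargo to the base, had 1 of 3 tested members higher, beside 16.8% of all genes. *Ift43*, one of its peripheral subunits, had a signal of 602, 565, 616 and 629 in Pkd1V/V replicates 1 to 4 and 408, 446, 477 and 431 in wild-type replicates 1 to 4. The Pkd1V/V kidneys were all above the wild-type kidneys and close to each other. The signal was 1.36-fold higher, a log2 fold change of 0.44 ± 0.10 (standard error) with an adjusted *P* of 0.0122 in limma. *Ift122* and *Ift140*, the larger subunits tested, had log2 fold changes of 0.03 and −0.04, with intervals from −0.28 to 0.33 and from −0.32 to 0.24. *Ift43* was the only member of either transport complex that passed, and no test was made of whether it differed from the other subunits.

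None of the 4 motor genes passed, beside 32.6% of all genes. *Kif3a*, a motor subunit of the outward kinesin whose loss from the kidney gives cysts in mice, had a signal of 581, 901, 469 and 526 in Pkd1V/V replicates 1 to 4 and 438, 620, 426 and 530 in wild-type replicates 1 to 4. Replicate 2 was the highest in both genotypes and the groups overlapped. The log2 fold change of 0.26 (standard error 0.21) had an adjusted *P* of 0.399 in limma, and the other detected *Kif3a* probe had a log2 fold change of −0.11. *Kif3b* and *Kifap3*, its partners in the motor, had log2 fold changes of 0.12 and −0.01. *Dync2li1*, a light intermediate chain of the return motor, was 500.3, 433, 460 and 515 against 539, 591, 525 and 538 in the same order. All of its Pkd1V/V kidneys were below all of its wild-type kidneys, by a log2 fold change of −0.20, and its adjusted *P* of 0.214 in limma did not pass.

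The Bardet-Biedl genes held the members that were lower. Of 7 tested, 3 fell (42.9%, beside 15.8% of all genes) and 4 did not pass. The log2 fold change was below 0 for 6 of the 7, as for 4723 of all 9833 genes, and its median was −0.38, beside 0.02 for all genes. No test of the group was made. *Bbs2*, a core subunit of the BBSome, had a signal of 113, 132, 150.4 and 143 in Pkd1V/V replicates 1 to 4 and 188, 195, 199 and 188 in wild-type replicates 1 to 4. The 4 wild-type kidneys lay within a narrow band above every Pkd1V/V kidney. The signal was 1.39-fold lower, a log2 fold change of −0.48 ± 0.11 (standard error) with an adjusted *P* of 0.0133 in limma.

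*Bbs4*, the subunit that links the BBSome to centriolar satellites, had a signal of 283, 271, 317 and 269 in Pkd1V/V replicates 1 to 4 and 311, 360.4, 483 and 369 in wild-type replicates 1 to 4. Pkd1V/V replicate 3 reached above wild-type replicate 1, and wild-type replicate 3 was the highest. Its log2 fold change was −0.38 ± 0.14 (standard error), at an adjusted *P* of 0.0797 in limma. *Bbs9*, a scaffold subunit, had a signal of 243, 215, 232 and 219.8 in Pkd1V/V replicates 1 to 4 and 279.7, 282, 261 and 283 in wild-type replicates 1 to 4. The genotypes did not overlap, although wild-type replicate 3 was below the other controls. Its log2 fold change was −0.26 ± 0.10 (standard error), at an adjusted *P* of 0.0818 in limma. Both calls were close to the threshold. That of *Bbs4* was kept only when Pkd1V/V replicate 3 or wild-type replicate 1 was the kidney left out (limma's adjusted *P* ran from 0.0484 to 0.186 over the 8 kidneys in turn). That of *Bbs9* was kept only when Pkd1V/V replicate 1 was left out (0.0895 to 0.170).

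*Bbs5*, which binds phosphoinositides, and *Bbs7* had log2 fold changes of −0.39 each (adjusted *P* = 0.169 and 0.130 in limma). The *Bbs5* signal was 161, 235, 271 and 232 in Pkd1V/V replicates 1 to 4 and 341, 288, 349 and 218 in wild-type replicates 1 to 4. The *Bbs7* signal was 106, 147, 136 and 167 in the former and 233, 199, 166 and 149.8 in the latter. In both, Pkd1V/V replicate 1 was the lowest kidney and wild-type replicate 4 lay among the Pkd1V/V kidneys, as did wild-type replicate 3 for *Bbs7*. Without wild-type replicate 4, both passed (adjusted *P* = 0.0670 and 0.0835 in limma), with 4 lower members in all, since *Bbs4* and *Bbs9* did not pass there and *Cc2d2a* did. *Bbs12*, a chaperonin-like gene needed to assemble the BBSome, had a log2 fold change of −0.18, and *Bbs1*, whose subunit binds the recruiting GTPase, of 0.09. Their kidneys overlapped, with *Bbs12* at 26.7 to 47.4 in Pkd1V/V and 30.2 to 63.7 in wild-type kidneys, and *Bbs1* at 17.8 to 37.1 and 14.5 to 35.8. *Bbs1* was close to the limit of detection, detected in 3 of the Pkd1V/V and 2 of the wild-type kidneys.

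**Figure D2:**
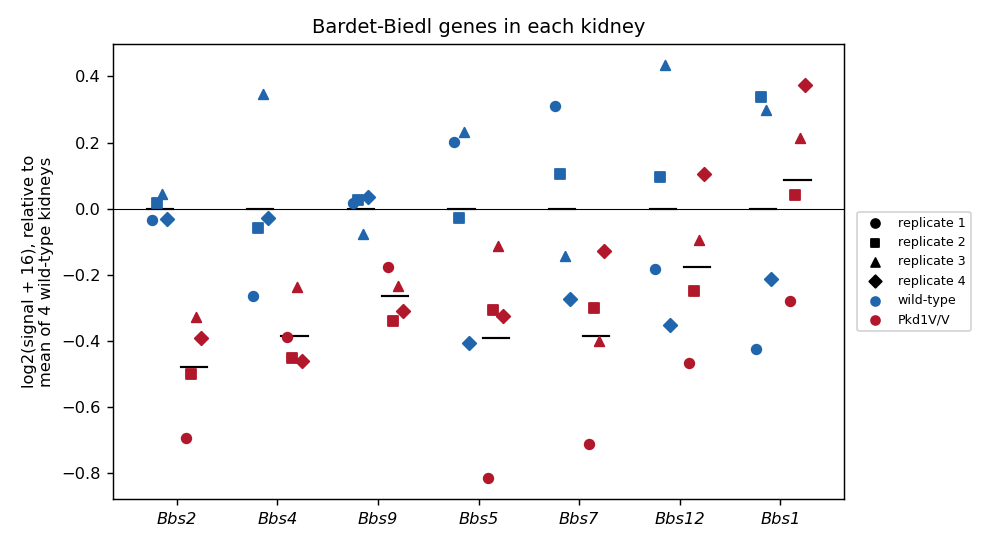
Log2 signal (offset 16) of the 7 Bardet-Biedl genes in each kidney, relative to the mean of the 4 wild-type kidneys; symbols give the replicate, colours the genotype and black lines the group means. Pkd1V/V means lie below 0 for 6 of 7 genes, and the groups are apart for *Bbs2* and *Bbs9*.

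Relative to the wild-type mean, the median deviation of the 7 genes on the log2 scale was −0.47, −0.31, −0.23 and −0.31 in Pkd1V/V replicates 1 to 4 and −0.03, 0.03, 0.23 and −0.21 in wild-type replicates 1 to 4. The lowest wild-type median, in replicate 4, was close to the highest Pkd1V/V one, in replicate 3. By the number of the 7 genes below the wild-type mean the kidneys overlapped, with 7, 6, 6 and 5 in Pkd1V/V replicates 1 to 4 and 4, 2, 2 and 6 in wild-type replicates 1 to 4. Other Bardet-Biedl genes, outside the naming rule, did not pass either. *Ttc8*, which encodes the BBS8 subunit, was 127, 129, 175 and 156 against 188, 181, 247 and 165 (log2 fold change −0.37, adjusted *P* = 0.106 in limma), and *Mkks*, a chaperonin-like partner of *Bbs12*, had −0.41 (0.302). *Trim32* and *Wdpcp*, also linked to the syndrome, had −0.16 and 0.03. Of the promoters of the 5 called members with a RefSeq window, 0 held the X-box or the lone arm. Those of *Bbs2* (chr8:94098510-94098609, minus strand) and *Bbs9* (chr9:22475615-22475714, plus strand) are given for the 100 bases before the start, all in lower case because neither motif is in them, which says only that these letters are absent from this window.
Bbs2: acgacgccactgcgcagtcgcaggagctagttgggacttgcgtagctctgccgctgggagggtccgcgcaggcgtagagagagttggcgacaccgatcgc
Bbs9: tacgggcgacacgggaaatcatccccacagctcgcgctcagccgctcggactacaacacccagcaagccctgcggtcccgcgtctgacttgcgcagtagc

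*Pkd1* itself did not pass. The *Pkd1* signal was 64.2, 136, 118 and 87.3 in Pkd1V/V replicates 1 to 4 and 85.4, 147, 118 and 118 in wild-type replicates 1 to 4. The groups overlapped, and in each genotype replicate 1 was the lowest and replicate 2 the highest. The log2 fold change was −0.20 (95% interval −0.69 to 0.28, adjusted *P* = 0.545 in limma). The V allele changes the protein, and a single probe of the transcript does not check the genotype. *Pkhd1*, which encodes fibrocystin, the protein of recessive polycystic kidney disease, was 242, 273, 259 and 335 against 266, 266, 236 and 271, with a log2 fold change of 0.08 (interval −0.20 to 0.36, adjusted *P* = 0.676). Its groups overlapped.

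*Bicc1* was the member of this class that rose. It encodes an RNA-binding protein, and mutations in the mouse gene give polycystic kidneys. The *Bicc1* signal was 3944, 3797, 2869.6 and 3367 in Pkd1V/V replicates 1 to 4 and 1969.6, 2573, 2147 and 2929 in wild-type replicates 1 to 4. Wild-type replicate 4 was above Pkd1V/V replicate 3, and otherwise the Pkd1V/V kidneys were higher. The signal was 1.46-fold higher, a log2 fold change of 0.54 ± 0.16 (standard error) with an adjusted *P* of 0.0335 in limma. *Glis2*, a zinc-finger gene of nephronophthisis, was 117, 169.6, 277 and 254 against 244, 156, 187 and 154 in the same order. It spread widely within both genotypes, and its log2 fold change of 0.08 (interval −0.48 to 0.65) had an adjusted *P* of 0.842.

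**Figure D3:**
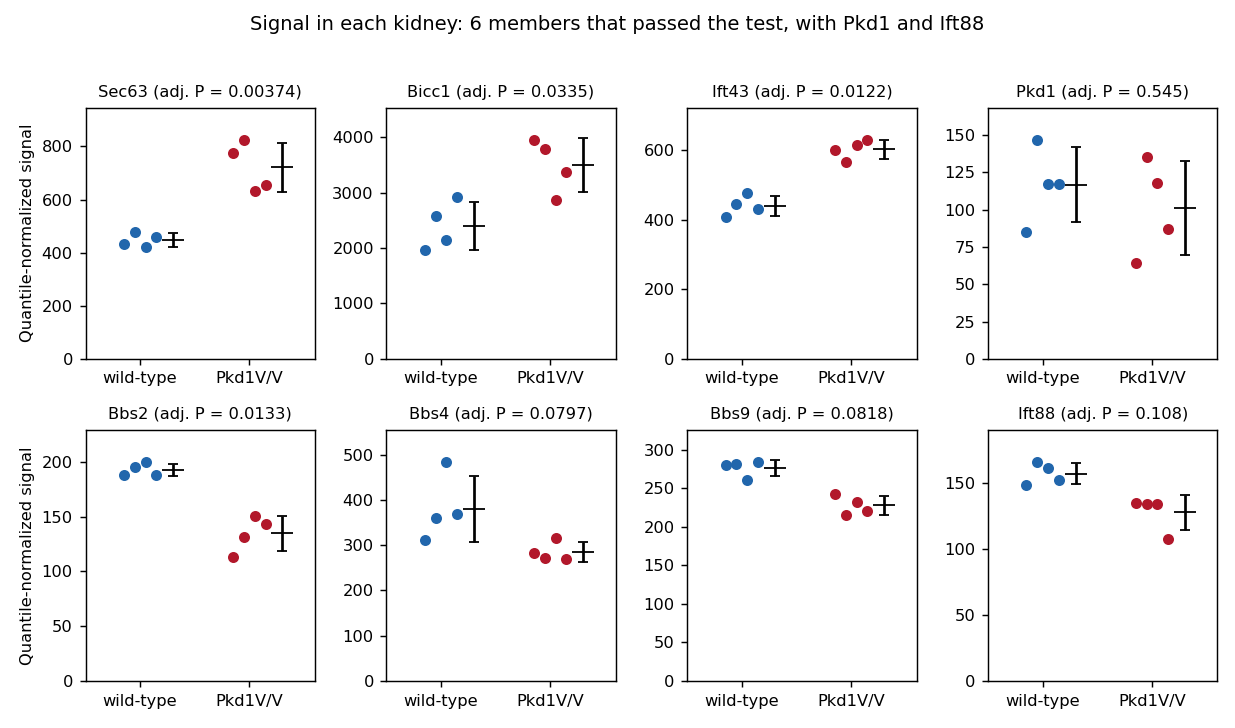
Quantile-normalized signal (vertical axes, from 0) of the 6 members that passed the test, with *Pkd1* and *Ift88*, in each of the 4 wild-type (blue) and 4 Pkd1V/V (red) kidneys; black marks give the mean and SD. *Sec63*, *Ift43*, *Bbs2*, *Bbs9* and *Ift88* separate the genotypes, and *Bicc1*, *Bbs4* and *Pkd1* overlap.

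Among the ER genes of polycystic liver disease, 1 of 3 rose, beside 16.8% of all genes. *Sec63*, a translocon component that helps to move nascent proteins into the ER, had the largest difference of all 35 members. The *Sec63* signal was 774, 823, 633 and 654 in Pkd1V/V replicates 1 to 4 and 433, 479, 421 and 459 in wild-type replicates 1 to 4. Every Pkd1V/V kidney was well above every wild-type kidney, and replicates 1 and 2 were the highest. The signal was 1.58-fold higher, a log2 fold change of 0.66 ± 0.12 (standard error) with an adjusted *P* of 0.00374 in limma. A second *Sec63* probe had a log2 fold change of 0.54 (adjusted *P* = 0.0155 over all probes in limma).

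The subunits of glucosidase II, which trims glycans during folding, did not pass. *Prkcsh*, the β-subunit, averaged 2288 ± 286 in the Pkd1V/V group and 1998 ± 247 in the wild-type group (signal, SD, n = 4 each; log2 fold change 0.19, adjusted *P* = 0.342 in limma). *Ganab*, the catalytic subunit, was 1574 ± 125 and 1649 ± 66.9 (SD, n = 4 each), a log2 fold change of −0.07 (adjusted *P* = 0.680). Of its 3 detected probes, one had −0.44 (adjusted *P* = 0.0718 over all probes in limma) and the others −0.07 and −0.08.

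At the transition zone and the basal body 0 of 4 tested members passed, beside 32.6% of all genes. *Cc2d2a*, a transition zone gene of Joubert and Meckel syndromes, was 275, 399, 419 and 498 in Pkd1V/V replicates 1 to 4 and 516, 604, 560.2 and 421 in wild-type replicates 1 to 4. Pkd1V/V replicate 1 was the lowest, and replicate 4 lay above wild-type replicate 4. Its log2 fold change was −0.41 ± 0.19 (standard error), at an adjusted *P* of 0.144 in limma, and it passed without Pkd1V/V replicate 4 (0.0857) or wild-type replicate 4 (0.0935). *Nphp4*, a nephronophthisis gene, and *Rpgrip1l*, a scaffold of the transition zone, had log2 fold changes of 0.14 and 0.04, and their kidneys overlapped.

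*Ahi1*, a Joubert syndrome gene, was 139, 316, 142 and 151 in Pkd1V/V replicates 1 to 4 and 137, 239, 162 and 161 in wild-type replicates 1 to 4, a log2 fold change of 0.03. *Nek8*, a kinase of the inversin compartment, was 116, 216, 129.7 and 123 against 100.4, 188, 140.5 and 182, a log2 fold change of −0.06. Replicate 2 was the highest kidney of its genotype for both genes. Their 95% intervals were wide, from −0.55 to 0.62 for *Ahi1* and from −0.57 to 0.45 for *Nek8*.

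Further genes of the organelle, taken from lists outside the naming rule, were spread on both sides. Of 10 more transport and BBSome genes tested, 0 passed (median log2 fold change −0.12), and of 10 genes of centrioles, docking and disassembly, 0 passed (median 0.00). In either direction 32.6% of all genes passed. Of 13 more transition zone and ciliopathy genes, 1 rose (7.69%) and 2 fell (15.4%), beside 16.8% and 15.8% of all genes (median −0.04). *B9d1*, of the transition zone, rose by a log2 fold change of 0.31 (adjusted *P* = 0.0737), and *Cspp1*, of the centrosome and axoneme, and *Rpgr*, also of the transition zone, were at −0.56 (0.0268) and −0.43 (0.0750), in limma. Hedgehog genes had 1 of 7 lower (14.3%, beside 15.8% of all genes), *Hhip*, an antagonist of the ligands, at −0.44 (adjusted *P* = 0.0332 in limma). Its signals were near the lower end of detection, at 28.5 to 38.3 in wild-type and 13.8 to 23.4 in Pkd1V/V kidneys. It was detected on 6 of the 8 arrays and may have entered the test through the wild-type kidneys, so this call adds nothing to its list.

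Of 14 genes of ciliary membrane traffic tested, 2 were higher and 2 lower (median −0.11). Each was 14.3% of the list, beside 16.8% and 15.8% of all genes. *Adcy6*, an adenylyl cyclase that makes cAMP in tubule cells, was 296, 461, 484 and 403 in Pkd1V/V replicates 1 to 4 and 571, 705, 621 and 639 in wild-type replicates 1 to 4. The groups did not overlap, and the log2 fold change was −0.63 (adjusted *P* = 0.0188 in limma). *Inpp5e*, the ciliary phosphoinositide phosphatase, was 99.5, 162, 175.5 and 146 against 256, 230.2, 228 and 205, again without overlap (−0.62, adjusted *P* = 0.0217). *Arl2bp* and *Rab10*, an effector of ARL GTPases and a RAB GTPase, rose by 0.49 and 0.36 on the log2 scale (adjusted *P* = 0.0319 and 0.0475 in limma).

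Of 9 further cystic kidney genes tested, 1 was higher (11.1%) and 2 were lower (22.2%), beside 16.8% and 15.8% of all genes. *Tsc2*, a tuberous sclerosis gene whose product restrains mTOR, fell without overlap, from 1072, 1384, 1099 and 1405 in wild-type replicates 1 to 4 to 826, 861, 655 and 561 in Pkd1V/V replicates 1 to 4 (log2 fold change −0.77, adjusted *P* = 0.00861 in limma). *Umod*, also a marker of the thick ascending limb, was at −1.14 (0.00257), and *Alg9*, an ER mannosyltransferase, at 0.38 (0.0765). Of 4 genes tested in a list of RFX and other transcription factors, *Rfx2* rose (25%, beside 16.8% of all genes). Its signal was 189.8, 152, 165 and 192 in Pkd1V/V replicates 1 to 4 and 123, 131, 102 and 135 in wild-type replicates 1 to 4. Its groups did not overlap (log2 fold change 0.46, adjusted *P* = 0.0254 in limma), whereas *Rfx1*, *Foxj1* and *Tfeb* lay between −0.12 and 0.05.

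**Figure D4:**
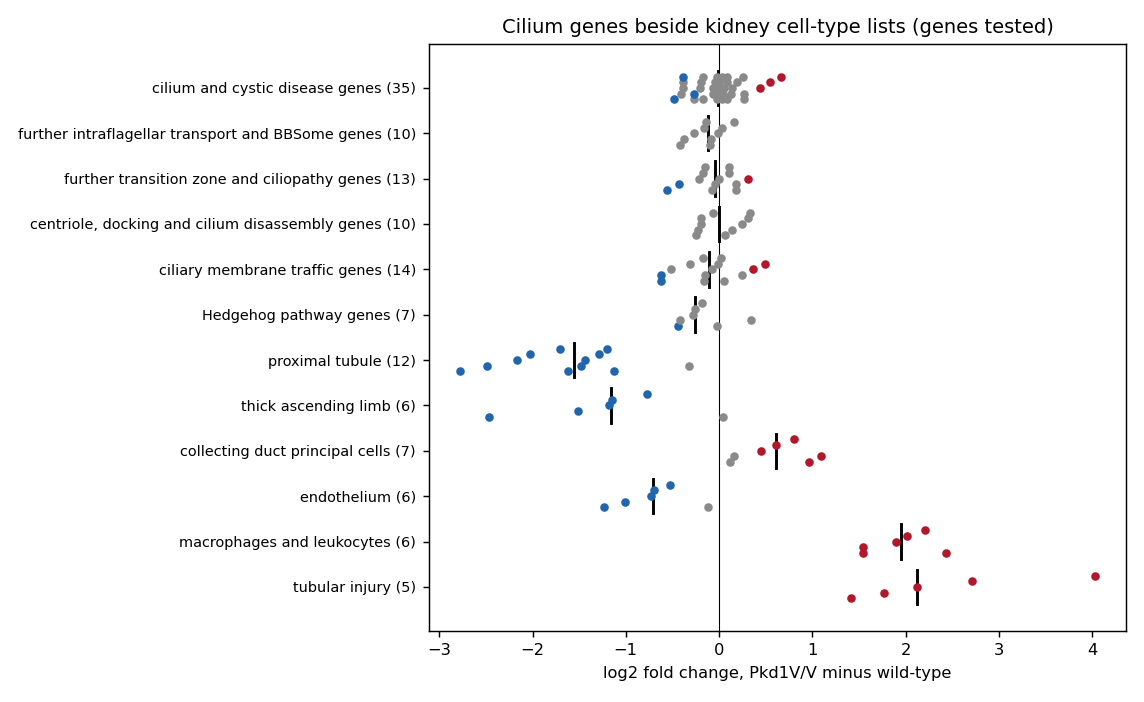
Log2 fold change (horizontal axis) of each tested gene in the cilium and cystic disease set, in further ciliary lists and in lists of kidney cell types; red is higher, blue lower and grey not past the test, black bars are medians and numbers in brackets are genes tested. The 35 members lie between −0.48 and 0.66, while the medians of the proximal tubule and macrophage lists are −1.55 and 1.96.

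Lists of several kidney cell types had larger median changes than the members, a difference that was not tested. The summed signal of the proximal tubule list was 11802 to 21638 in Pkd1V/V kidneys and 44738 to 55407 in wild-type kidneys, and its median log2 fold change was −1.55. That of the principal cell list was 9294 to 14127 and 6916 to 7318 (median 0.61, with *Scnn1b* at 1.09 and *Gata3* at 0.96, adjusted *P* = 0.00145 and 0.00548 in limma). The 8 genes of motile multiciliated cells, whose cilia are not primary ones, summed to 99.0 to 184 and 102 to 129, a range that overlapped between the genotypes. Of 3 tested, *Rsph1* passed, but it was detected on 4 of the 8 arrays and entered the test through the Pkd1V/V kidneys. The proximal tubule and endothelial sums (5173 to 6450 against 10075 to 10775) fell and the principal cell and macrophage sums (2043 to 8273 against 751 to 894) rose beside each of the 6 called members, and the part of cell composition in those calls was not tested.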

How the data were processed

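RNA of 8 mouse kidneys was hybridized to Illumina MouseRef-8 v2.0 BeadChip arrays. The authors deposited a background-subtracted signal intensity for 25697 probes, not normalized between arrays, with a detection p-value per probe and array, the standard error over beads and the number of beads. They also deposited a quantile-normalized table of intensities, used as an alternative. The imaging software is not given in the sources used here.

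Signals were quantile-normalized, set to 0 where negative, and analysed as log2(signal + 16) in R 4.3.3. Genes needed a probe with a detection p-value under 0.05 on at least 3 arrays and were represented by their brightest probe. The annotation names 1 gene for 23978 probes. Genotypes were compared with limma 3.58.1 (lmFit, eBayes), adjusted over all 9833 genes and called at an adjusted *P* under 0.1. SAM, which the methods name, was an alternative, as were the offset, normalization, filter, probe rule, threshold, leaving out single kidneys, a replicate block, and array weights. Single genes were also compared by an exact permutation test. The pipeline was tested on simulated data. The number of arrays, 4 per genotype, limits the precision. The limma p-values set the difference between genotypes against the spread between these kidneys, moderated over all genes tested.

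The members, the lists of pathways and cell-type markers, and the tests were chosen with earlier results of these data known. By rule, values per kidney were given for called members and for *Pkd1*, *Pkhd1*, *Ift88*, *Kif3a*, *Bicc1* and *Glis2*, and of other lists for up to 3 called genes in each direction (2 for markers). *Bbs5*, *Bbs7*, *Dync2li1*, *Cc2d2a*, *Ahi1*, *Nek8*, *Ttc8*, *Mkks*, *Trim32*, *Wdpcp* and genes of other lists that did not pass were added after their values were seen. Promoters came from RefSeq tables (GRCm38.p6).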

Additional observations from a re-analysis of the deposited data

Results flagged for a closer look

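Among 70 groups of 4 kidneys (35 members in 2 genotypes), 5 held a kidney whose signal stood farther from the other 3 than Dixon's 95% limit, where chance marks about 1 in 20 groups. *Ift88* was 108 in Pkd1V/V replicate 4, below 134 to 135 in the others. *Bbs9* was 261 in wild-type replicate 3, below 279.7 to 283, and *Pkhd1* was 236 in the same kidney, below 266 to 271. *Ahi1* was 316 in Pkd1V/V replicate 2, above 139 to 151, and *Nek8* was 216 there, above 116 to 129.7.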

How the results depend on the processing

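The members called higher numbered 3 under every alternative run except signals without normalization, which gave 1. The members called lower numbered 3 and fell to 1 with median scaling, 1 without normalization and 1 at an adjusted *P* under 0.05. They rose to 5 of 35 with SAM (*delta* 1.0), which added *Ift88* and *Dync2li1* and called 1646 of the 9833 genes lower. All calls together numbered 6, and 2 without normalization, where 21.0% of all genes passed instead of 32.6%. Without the detection filter 6 of the 43 members then tested passed, beside 17.6% of all genes. The gap between members and all genes was smaller there than in the main fit (6 of 35 beside 32.6%). With each kidney left out in turn, 3 to 3 members were higher, 1 to 4 were lower, 4 to 7 passed in all, and the median ran from −0.02 to 0.02. The calls of *Sec63* and *Bbs2* held under every alternative, *Bicc1* and *Ift43* lost theirs only without normalization, and *Ift88* passed under 5 limma alternatives as well as in SAM (adjusted *P* from 0.0486 to 0.254 over all). No called member changed sign. The causes were not tested.

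The replicate numbers were not used as pairs, since no source says that they mark one and the deviations of same-numbered kidneys correlated unevenly, at −0.22, 0.31, 0.18 and −0.25 for replicates 1 to 4; this does not show that the numbers share nothing. With the replicate block, 3 members were higher and 2 lower, and *Bbs9* no longer passed (adjusted *P* = 0.155). The 4 arrays per genotype, 8 undetected members and 5 members without a named probe limit what can be said. In the main fit each gene rested on 1 probe, although 10 members had more than 1 detected probe.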

Other observations

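Replicate 2 was the highest kidney of both genotypes at once for 8 of 35 members (22.9%), namely *Ahi1*, *Ift172*, *Kif3a*, *Nek8*, *Nphp4*, *Pkd1*, *Prkcsh* and *Sec63*, and for 13.96% of all genes tested. Wild-type replicate 2 was the highest control for 17 of 35 members (48.6%), beside 29.7% of all genes, and Pkd1V/V replicate 2 the highest mutant for 8 (22.9%), beside 28.7%. These arrays also had the lowest medians as deposited, 20.9 and 21, where the other 6 had 25.3 to 34.6. The part of the arrays in this was not tested.

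Within a genotype the members spread about as much as other genes did. The median SD on the log2 scale was 0.18 for the members and 0.22 for all genes among Pkd1V/V kidneys, and 0.19 and 0.21 among wild-type kidneys.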
